A study of Mus musculus with 2 samples.

Results

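The genes described here encode the respiratory chain, the set of enzymes in the inner mitochondrial membrane that carries electrons to oxygen and makes ATP, in single periosteal cells of the mouse. They were chosen by symbol. Genes of the mitochondrial genome start with mt-, and nuclear genes start with Ndufa, Ndufb, Ndufc, Ndufs, Ndufv, Uqcr, Sdh, Cox4i, Cox5, Cox6, Cox7, Cox8 or Atp5. The forms Ndufa4l2, Cox4i2, Cox6a2, Cox7a1 and Cox8b were set aside and are described on their own. The rule found 117 of the 17938 genes listed in the tables of unique molecular identifiers (UMIs, each standing for 1 captured RNA molecule). They were 12 mitochondrial protein-coding genes, 2 mitochondrial ribosomal RNAs, 13 mitochondrial transfer RNAs and 90 nuclear genes.

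The study labeled periosteal cells that express alpha smooth muscle actin (αSMA) with a tamoxifen-inducible Cre (αSMACreER) and the red Ai9 reporter Tomato, and asked what these cells and their descendants are at later times. Living Tomato+ cells from the tibia and femur periosteum of pools of 2 to 3 female mice were sorted, 1 per well, after a 30 min enzyme digest. All mice received 2 doses of tamoxifen at 75 mg/kg, 1 day apart. The 2-day cells (chase 2 days, mice 10.3 weeks old) and the 6-week cells (chase 43 days, 14.4 weeks old) came from αSMACreER/Ai9/Col2.3GFP mice, which also carry a green osteoblast reporter. The 13-week cells (chase 96 days, 20.1 weeks old) came from αSMACreER/Ai9/R26-M2rtTA/TetOP-H2B-GFP mice given doxycycline for 5 weeks from postnatal day 11. The effects of strain, doxycycline, age and chase on the 13-week cells cannot be told apart. The 2-day and 13-week wells shared a plate and the 6-week wells had another, so for the latter, plate and time cannot be told apart.

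A mitochondrion builds its respiratory chain from both genomes. Complex I (NADH dehydrogenase), complex III (cytochrome bc1), complex IV (cytochrome c oxidase) and complex V (ATP synthase) combine subunits made inside the organelle with subunits imported from the cytosol, whereas all subunits of complex II (succinate dehydrogenase) are nuclear. Muscle fibers are rich in mitochondria and carry their own forms of several complex IV subunits, while smooth muscle and pericytes are known for other forms.

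Wells with at least 200 genes were kept: 181 at 2 days, 189 at 6 weeks and 133 at 13 weeks. They held 171209, 156763 and 117824 UMIs, with medians of 795, 672 and 726 UMIs per well. Levels are given as UMIs per 10000 UMIs of all genes, summed over the wells of a time point. Only 3′ ends were sequenced, so a level counts captured 3′ ends and was not divided by gene length. Each time point was 1 pool of mice and therefore none of the differences between times has a test. Intervals in brackets are exact 95% intervals that cover counting error only. The 2 plates used the same primers, and 137 well barcodes of kept wells occurred on both plates. No wells were removed as doublets. Of the cell type lists, fibroblast or progenitor markers summed to between 124 and 210 UMIs per 10000 in wells without muscle transcripts, perivascular markers to between 24.3 and 45.4, and osteoblast markers to between 2.15 and 24.8.

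The 3′ ends of several mitochondrial genes are shown because this assay reads only that end, and some have an identical copy in the nuclear genome. Annotated transcripts on chromosome 1 of GRCm38 repeat the ends of the neighboring genes mt-Co1, mt-Co2, mt-Atp6, mt-Co3, mt-Nd3 and mt-Nd4l. Of the 50-base windows in the last 300 bases, 100% for mt-Co2 and 98.8% for mt-Atp6 occurred letter for letter in another annotated transcript, against 0% for mt-Cytb and mt-Nd4. The share was also 100% for mt-Co1 and 98.8% for mt-Nd3, which were counted 435 and 87 times. It was 0% for mt-Nd6, with 12 UMIs, and for the 204 bases of mt-Atp8, with 0 UMIs. Only annotated transcripts were searched, so a copy outside them, of mt-Atp8 or another gene, would have been missed. The last 60 bases of 5 genes follow, from the GENCODE M21 transcripts (GRCm38, plus strand), with capitals for bases that are the same in the aligned nuclear copy.
mt-Co2, chrM:7637-7696, copy Gm28661: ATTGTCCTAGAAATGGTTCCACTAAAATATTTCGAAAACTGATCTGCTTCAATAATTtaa
mt-Atp6, chrM:8548-8607, copy Gm10925: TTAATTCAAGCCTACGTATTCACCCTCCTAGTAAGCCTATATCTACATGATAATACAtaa
mt-Co3, chrM:9331-9390, copy Gm28437: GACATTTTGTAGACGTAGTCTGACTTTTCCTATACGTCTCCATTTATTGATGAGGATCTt
mt-Nd4, chrM:11485-11544, beyond its copy: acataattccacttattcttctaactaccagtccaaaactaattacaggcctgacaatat
mt-Cytb, chrM:15229-15288, no copy: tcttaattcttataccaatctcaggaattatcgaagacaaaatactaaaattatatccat

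The 12 mitochondrial protein-coding genes were counted very unequally. Cytochrome b of complex III (mt-Cytb) led with 1692 UMIs in 451 of 503 wells. The complex I genes mt-Nd1, mt-Nd2 and mt-Nd4 followed with 1061, 930 and 890 UMIs, and the complex IV gene mt-Co1 with 435. mt-Nd5 had 263 UMIs, mt-Nd3 had 87, and mt-Nd6, the protein-coding gene on the other strand of the mitochondrial genome, had 12. By contrast, mt-Co2 and mt-Co3 had 1 UMI each, and mt-Atp6 and mt-Atp8, the mitochondrial part of ATP synthase, had 0. mt-Co2 was listed only for the mixed plate, and mt-Atp6 and mt-Atp8 only for the 6-week plate, where the exact interval of a count of 0 reaches 0.235 UMIs per 10000. Complex V was thus seen only through its nuclear genes, and complex IV of the mitochondrial genome almost only through mt-Co1. mt-Nd4l was listed in neither table used here, so its level was not analysed here.

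How the authors treated reads that match several places is not given in the sources used here, and the part of the copies in the low counts was not tested. The mitochondrial rRNAs were the most abundant members, with 15615 UMIs for mt-Rnr2 in 500 wells and 3628 for mt-Rnr1 in 457 wells. The transfer RNAs together had between 24 and 29 UMIs at each time point.

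**Figure D1:**
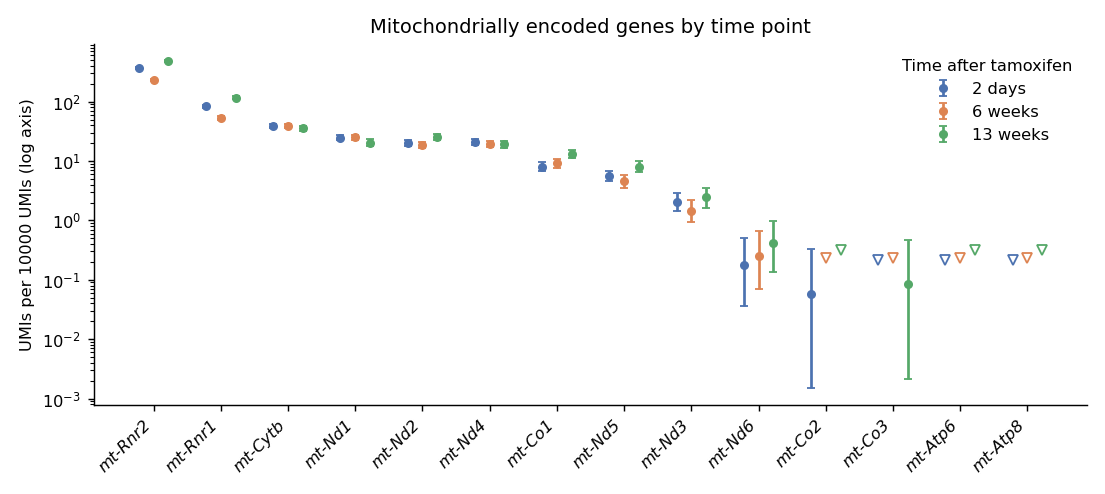
Level of each mitochondrial rRNA and protein-coding gene (UMIs per 10000 UMIs of all genes, log axis) at 2 days, 6 weeks and 13 weeks. Points are sums over the wells of a time point, bars are exact 95% Poisson intervals, and open triangles mark the upper end of that interval where no UMI was counted or the gene was not listed for the plate; mt-Rnr2 lies highest at all times, and mt-Co2, mt-Co3, mt-Atp6 and mt-Atp8 lie at the bottom.

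Of the 90 nuclear genes, 88 had a UMI in kept wells and 62 had at least 50, and they held 9500 UMIs against 5372 for the mitochondrial mRNAs. Complex I held 3358 of these UMIs in 36 genes, complex II 207 in 4, complex III 990 in 8, complex IV 2374 in 13 (Ndufa4 included) and complex V 2358 in 16. The remaining 13 genes, mostly assembly factors, held 213. The most counted genes were Cox4i1, a regulatory subunit of complex IV, with 372 UMIs in 233 wells, and its partners Cox6c with 320 and Cox6a1 with 282. Cox8a had 235 UMIs, Cox7b 226 and Cox7c 197. Among complex V genes, the stalk subunit Atp5j had 277 UMIs, Atp5e 235, Atp5j2 199, the catalytic beta subunit Atp5b 193 and Atp5h 192. Ndufa13, an accessory subunit that led complex I, had 196. No nuclear gene was thus found in more than 233 of 503 wells, whereas mt-Cytb was found in 451.

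The first comparison asked whether respiratory chain transcripts differed with time after labeling. Over all wells, mitochondrial mRNAs stood at 120.3 per 10000 at 2 days, 117.9 at 6 weeks and 124.3 at 13 weeks, which gave ratios to 2 days of 0.980 (0.920 to 1.04) and 1.03 (0.966 to 1.11). Nuclear genes stood at 218.8, 206.8 and 213.2, with ratios of 0.945 (0.902 to 0.991) at 6 weeks and 0.974 (0.926 to 1.03) at 13 weeks. With wells weighted equally the 6-week ratio was 1.02, and with a minimum of 100 genes per well the 13-week ratio was 1.05. The mitochondrial mRNA count per nuclear count was 0.550, 0.570 and 0.583.

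Mitochondrial rRNAs differed far more between time points than the mRNAs. They stood at 449, 286 and 599 per 10000 at 2 days, 6 weeks and 13 weeks, and made up 78.7%, 70.6% and 82.5% of all mitochondrial UMIs. The ratio to 2 days was 0.637 (0.614 to 0.661) at 6 weeks, whereas it reached 1.33 (1.29 to 1.38) at 13 weeks. The count of mt-Rnr2 per mt-Rnr1 stayed between 4.13 and 4.43. Gm26924, a gene model known to collect nuclear ribosomal RNA reads, stood at 633, 418 and 886 per 10000 in the same wells, with the lowest level again at 6 weeks and the highest at 13 weeks. Whether rRNA capture by the assay has a part in this was not tested. The share of mitochondrial UMIs among all UMIs, 5.71%, 4.06% and 7.26%, therefore differed mainly through the rRNAs.

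Complex by complex, the levels over all wells were as follows. Complex I stood at 76.6, 72.4 and 77.4 per 10000, complex III at 21.1, 23.9 and 21.6, and complex IV at 55.9, 51.0 and 52.4. Complex V was lower at both later times, at 56.3, 51.1 and 50.3, with ratios of 0.907 (0.825 to 0.998) and 0.894 (0.806 to 0.991). Complex II stood at 4.15, 4.53 and 5.52 per 10000, and its interval at 13 weeks included 1. Without the muscle wells, which were 1, 10 and 7 at the 3 times, all nuclear members had ratios to 2 days of 0.856 (0.815 to 0.900) at 6 weeks and 0.883 (0.837 to 0.932) at 13 weeks. Complex IV then had ratios of 0.831 (0.752 to 0.918) and 0.851 (0.763 to 0.948), complex V of 0.811 (0.734 to 0.896) and 0.786 (0.703 to 0.878), complex I of 0.875 (0.805 to 0.952) and 0.944 (0.863 to 1.03), and complex III of 0.963 and 0.901, with intervals that included 1. In wells of no class, the 6-week ratios were 0.839 (0.721 to 0.975) for complex IV and 0.804 (0.687 to 0.940) for complex V, while the 13-week ratios, 0.993 (0.845 to 1.16) and 0.969 (0.821 to 1.14), had intervals that included 1. In wells of the tendon class alone the 13-week ratios were 0.643 (0.523 to 0.785) and 0.527 (0.423 to 0.653).

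**Figure D2:**
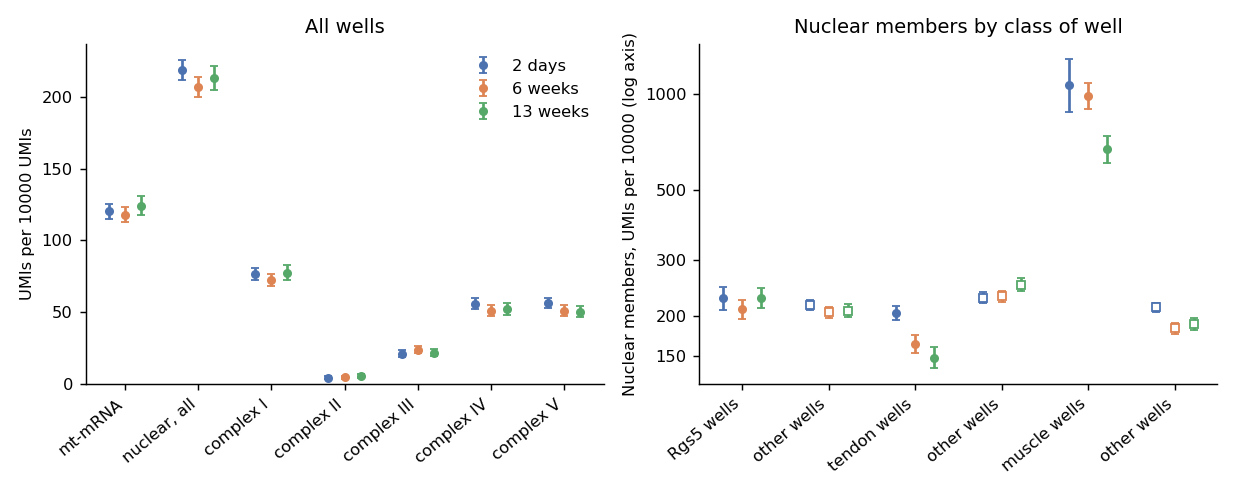
Left, levels of mitochondrial mRNAs, all nuclear members and each complex's nuclear genes over all kept wells, with UMIs per 10000 on a linear axis. Right, nuclear members on a log axis in wells with Rgs5, tendon or muscle transcripts (filled circles) and in the wells outside each class (open squares), by time point, with exact 95% Poisson intervals; tendon wells fell from 205 at 2 days to 148 at 13 weeks, and muscle wells lay between 672 and 1071.

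Single genes have far fewer UMIs than their sums, so their ratios scatter more. Those named in this and the next paragraph were picked as the 3 highest and 3 lowest ratios, and their intervals do not allow for that choice. Of 62 members with at least 50 UMIs in the wells compared, 5 were at least 1.5-fold higher at 13 weeks than at 2 days, against 8.68% of all 772 genes compared, and 5 were at least 1.5-fold lower, against 18.5%. Ndufa5, an accessory subunit of complex I, stood at 2.16, 3.13 and 4.33 per 10000 at 2 days, 6 weeks and 13 weeks, and was 2.00-fold (1.29 to 3.15) higher at 13 weeks. Ndufa6, also an accessory subunit of complex I, stood at 2.45, 3.25 and 4.16 and was 1.70-fold (1.10 to 2.62) higher, although on read counts its ratio was 0.953. mt-Co1, the catalytic subunit of complex IV, stood at 8.002, 9.12 and 13.2 and was 1.64-fold (1.30 to 2.08) higher. mt-Co1 thus differed more at 13 weeks than the mitochondrial mRNAs as a whole, whose ratio was 1.03.

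In the other direction, Atp5d, the delta subunit in the stalk of ATP synthase, stood at 3.39, 1.85 and 1.27 per 10000 at the 3 times, a ratio of 0.376 (0.198 to 0.672) at 13 weeks. Ndufb6, a membrane arm subunit of complex I, had ratios of 0.413 (0.221 to 0.735) at 6 weeks and 0.517 (0.273 to 0.932) at 13 weeks. Both were thus lower at each later time, on either plate. Ndufa11 had a ratio of 0.614 (0.339 to 1.07) at 13 weeks. Between 6 weeks and 2 days, 1 member was at least 1.5-fold higher, against 13.2% of 957 genes, and 5 were lower, against 11.5%. The first was Uqcrq, a small subunit of complex III, at 1.55 (1.05 to 2.29), followed by Ndufa5 at 1.45 (0.925 to 2.28) and Ndufb10 at 1.36 (0.837 to 2.22). Those lower were Atp5d, Ndufb6, the iron-sulfur subunit Ndufs8 at 0.631 (0.374 to 1.05) and both rRNAs. The median ratio of 53 nuclear members was 0.953 at 13 weeks and 0.936 at 6 weeks, beside 0.918 and 0.981 for all genes compared.

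The other mitochondrial genes with many UMIs did not all differ one way between 2 days and 13 weeks. mt-Nd2 was 1.24-fold (1.05 to 1.45) higher and mt-Nd5 1.42-fold (1.06 to 1.91) higher, whereas mt-Nd1 was at 0.826 (0.702 to 0.970). mt-Cytb was at 0.923 (0.815 to 1.05) and mt-Nd4 at 0.920 (0.775 to 1.09).

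Single wells spread widely around these levels. The mitochondrial mRNA level of a well had medians of 115, 114 and 121 per 10000 at the 3 times and reached from 9.56 to 567 at 2 days, from 0 to 874 at 6 weeks and from 0 to 806 at 13 weeks. The nuclear level had medians of 217, 186 and 187 and reached up to 1071, 1567 and 1423. A typical well held 9 mitochondrial mRNA UMIs and 14 to 17 nuclear ones, so the level of a single well rests on few counts. Across wells the Spearman correlation of mitochondrial mRNAs with rRNAs was 0.38 at 2 days (181 wells), 0.27 at 6 weeks (189 wells) and 0.38 at 13 weeks (133 wells). That of mitochondrial mRNAs with nuclear genes was 0.25, -0.12 and 0.19. These values share the well's total UMIs as denominator and are descriptions only.

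The second comparison set wells apart by transcripts of other cell types in them, within each time point. Wells with at least 1 UMI of Rgs5, a pericyte and vascular smooth muscle gene, numbered 35, 45 and 38 at 2 days, 6 weeks and 13 weeks. Wells with at least 3 UMIs of the tendon genes Thbs4, Fmod and Tnmd numbered 70, 68 and 49. Wells with at least 5 UMIs of the muscle fiber genes Acta1, Mb and Ckm numbered 1, 10 and 7. Of the 503 wells, 13 were in both the Rgs5 and the tendon class, 1 in the Rgs5 and muscle classes, and 194 in none. Counts were summed per time point and class, and the classes were compared with edgeR's quasi-likelihood test with the time point as a block and Benjamini-Hochberg adjustment over all genes tested. The 3 time points serve as replicates of this contrast, although they differ in strain, age and plate.

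Wells with muscle transcripts held 3.57 to 5.40 times the nuclear respiratory chain transcripts of the other wells, from all 5 complexes, without a matching rise of the mitochondrial mRNAs. The nuclear level was 1071 per 10000 in the single 2-day well, 988 in the 6-week wells and 672 in the 13-week wells, against 214, 183 and 189 in the other wells. The ratios were 5.01, 5.40 and 3.57, and the mean log2 ratio was 2.20 ± 0.32 (SD, n = 3 time points). All 18 wells lay above the 95th percentile of the other wells of their time point, and at 6 weeks the lowest muscle well stood at 608 and the highest other well at 449. By complex, the mean log2 ratio was 2.22 for complex I, 2.09 for complex II, 2.28 for complex III, 2.13 for complex IV and 2.179 for complex V. For complex II the 2-day ratio, 2.32 (0.0580 to 13.4), rested on 1 UMI in the muscle well.

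Mitochondrial transcripts did not follow. Their mRNAs stood at 9.56 per 10000 in the 2-day muscle well, 45.01 in the 6-week wells and 138 in the 13-week wells, against 121, 120 and 124 in the other wells. The levels were thus far below the other wells at 2 days and 6 weeks. At 13 weeks the ratio was 1.12 (0.887 to 1.40), and it rested on single wells. The 7 wells stood at 0, 0, 37.5, 143, 228, 250 and 260 per 10000, with a median of 143 against 121 in the other wells. Leaving out each of these wells in turn, after seeing the data, gave ratios from 0.647 to 1.53. The lowest was without the well also in the Rgs5 class, which held 54 of the 83 UMIs, and the highest without a well of 1592 UMIs that held 0. No direction was thus shown at 13 weeks. The level was below the median of the other wells in 1 of 1 muscle well at 2 days, 9 of 10 at 6 weeks and 3 of 7 at 13 weeks. The rRNAs stood at 19.1, 53.6 and 362 against 452, 294 and 612. The nuclear non-coding RNA Malat1 was also low in these wells, at 19.1, 55.7 and 105 against 130, 194 and 137, and Gm26924 at 172, 328 and 454 against 636, 421 and 909. Muscle markers summed to between 561 and 2170 per 10000 in these wells against 2.63 to 4.56 outside, and their part in the low mitochondrial levels was not tested.

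**Figure D3:**
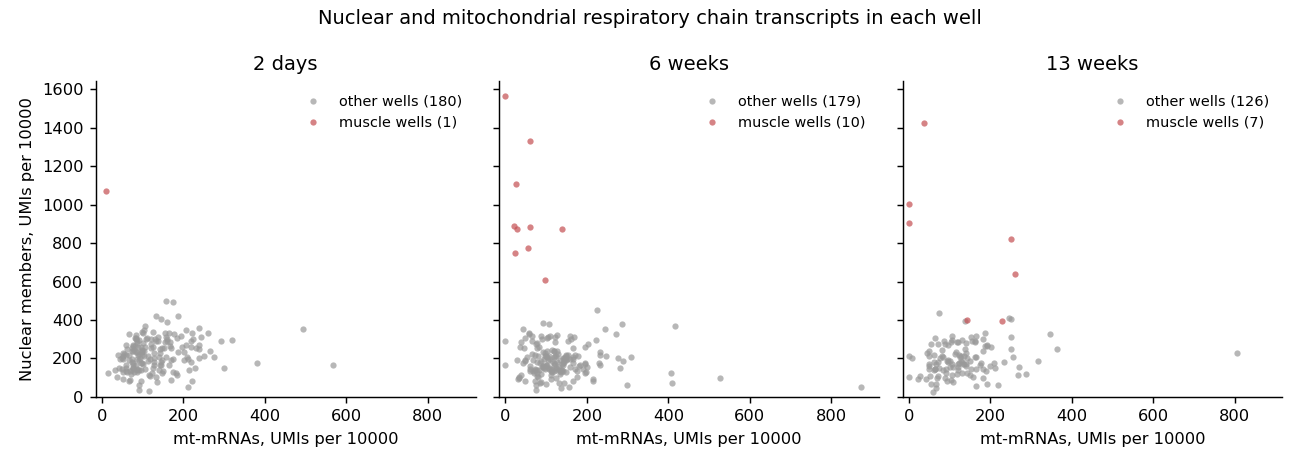
Level of nuclear members (vertical) against mitochondrial mRNAs (horizontal), both in UMIs per 10000, in each kept well at 2 days, 6 weeks and 13 weeks. Muscle wells (red) reach nuclear levels of 397 to 1567, above nearly all other wells (gray), and lie below the median mitochondrial mRNA level of the other wells in 1 of 1 case at 2 days, 9 of 10 at 6 weeks and 3 of 7 at 13 weeks.

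Of 66 members tested, 25 rose in muscle wells, all nuclear, against 9.08% of all 793 genes tested. A mitochondrial gene, mt-Co1, fell, against 10.2% of all genes tested that fell. Some genes passed the filter on low counts only with the help of the muscle sums, and these include Cox5a, Sdhc and Sdhb. Of the 51 members that passed it in the other wells at all 3 times, 22 rose, or 43.1%, beside 4.80% of 604 genes. They were 7 of 16 complex I genes, 4 of 5 of complex III, 5 of 10 of complex IV and 6 of 12 of complex V, and no complex II gene passed it there. Each fold is on a scale on which the median of all genes was at -1.02, so the nuclear median of 1.67 stood 2.69 above it and the mitochondrial mRNA median of -1.21 was 0.20 below it. The same split was 13 higher and 8 lower with DESeq2's size factors, and 39 higher and 0 lower with total UMIs only, where all genes had medians of -1.82 and -0.51. Of all 793 genes tested, 52 rose and 317 fell with DESeq2's size factors, and 99 rose and 55 fell with total UMIs only.

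In complex I, Ndufc1 rose most, by 2.72 ± 0.59 on the log2 scale (SE, edgeR adjusted p = 9.72e-05), from 3.29, 2.83 and 2.06 per 10000 in the other wells to 38.2, 25.7 and 18.4 in muscle wells. Cox5a, which binds the catalytic core of complex IV, stood at 9.56, 27.9 and 10.01 per 10000 in muscle wells at 2 days, 6 weeks and 13 weeks and at 2.29, 1.18 and 1.52 in the other wells. Cox7c stood at 38.2, 40.7 and 30.0 against 3.64, 3.48 and 3.67, a log2 fold change of 2.79 (edgeR adjusted p = 4.41e-05). The sums of muscle and other wells did not overlap for any of these genes, as for 40 of the 66 members tested in this direction, against 15.4% of all 793 genes. Among genes that passed the filter in the other wells, which Cox5a did not, this held for 34 of 51 members, against 9.77% of 604 genes. Cox7b rose by 2.505 on the log2 scale, from 5.52, 4.01 and 3.22 to 66.9, 38.6 and 16.7.

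Sdhc, a membrane anchor of succinate dehydrogenase, stood at 9.56, 6.43 and 8.34 per 10000 against 1.12, 0.986 and 0.537. Only 9 of its 49 UMIs were in muscle wells. Sdhb, the iron-sulfur subunit, had 0, 7 and 2 UMIs in them and was named after its values were seen. Atp5g1, a gene for the rotor ring of ATP synthase, stood at 47.8, 38.6 and 8.34 against 3.17, 2.30 and 2.68, a log2 fold change of 2.74. The muscle wells were thus highest at 2 days, where they were a single well. The stalk subunit Atp5o rose by 2.43 and Atp5e by 2.31 on the log2 scale, and the complex III subunits Uqcrq and Uqcr11 by 2.51 and 2.33.

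Members that are otherwise abundant did not all rise. Cox4i1 had a log2 fold change of 0.92 (edgeR adjusted p = 0.244), Atp5j of 0.98 (0.228) and Ndufa13 of 0.76 (0.428). Cox6a1 and Cox8a, for which a muscle form is known, had log2 fold changes of -1.01 (0.370) and -0.81 (0.492), with 5 UMIs each in muscle wells. These UMIs came from 3 and 2 of the 18 wells. mt-Co1 had 0, 0 and 4 UMIs in muscle wells and levels of 8.05, 9.40 and 13.5 per 10000 outside them, a log2 fold change of -2.29 ± 0.84 (edgeR adjusted p = 0.0378), or 1.28 below the all-gene median. These calls rest on few wells. Without the 2-day well 15 members rose, against 6.32% of all genes, and mt-Co1 was no longer called. Without the 6-week or without the 13-week wells no member was called, while 1.79% and 0.500% of all genes rose. In these 2 fits 2 and 1 members had an unadjusted edgeR p under 0.05. With a minimum of 300 genes 7 rose and 6 fell (5.69% and 34.2% of all genes). Without the filter on low counts 0 rose and 3 fell (0.248% and 0.601%). On read counts there were 0 calls (6 under 0.05), against 0.472% of all genes in each direction. DESeq2 called 11 higher and 7 lower on all wells, against 6.31% and 38.1% of all genes. Without the deepest 5% of wells 15 rose and 10 fell, against 7.75% and 48.1% of all genes, and Cox6a1 and Cox8a were then among those called lower.

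**Figure D4:**
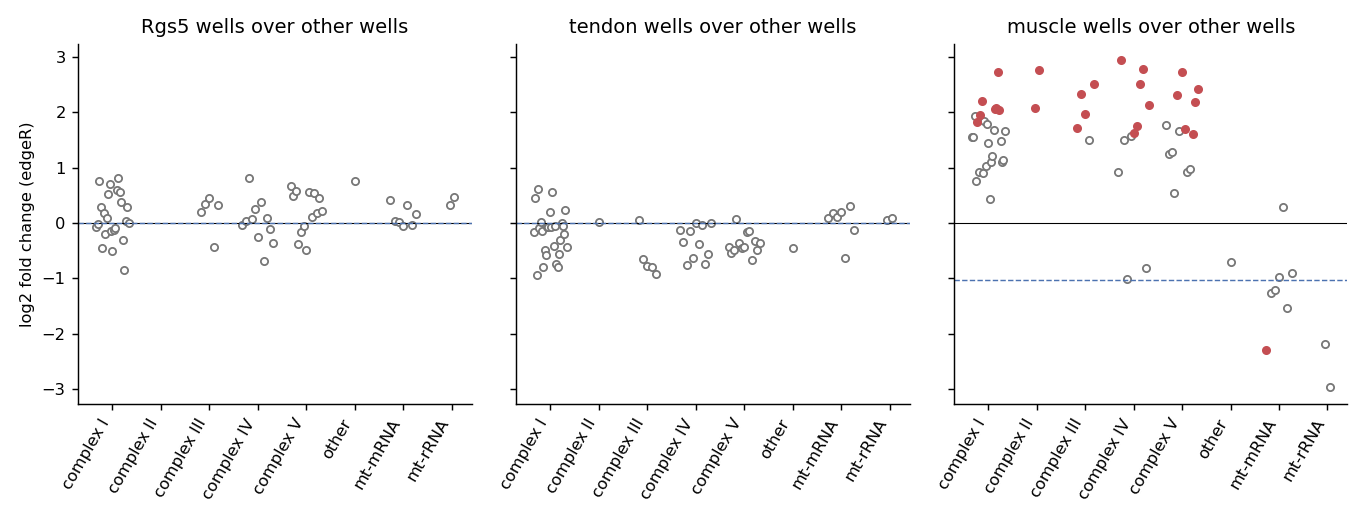
edgeR log2 fold change of each member tested in wells with Rgs5, tendon or muscle transcripts over the other wells, grouped by complex for nuclear genes and by kind for mitochondrial genes, with adjusted p under 0.05 in red, the dashed line at the median of all genes tested and the solid line at 0. Red points occur only for muscle wells: 25 nuclear genes above 0 and mt-Co1 below it.

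Genes of related pathways in muscle wells were counted from lists of named genes. In glycolysis, 5 of 8 genes tested rose and 0 fell, beside the 9.08% of all genes tested. Of the 4 that passed the filter on low counts in the other wells, 2 rose, Aldoa (log2 fold change 3.48, edgeR adjusted p = 3.17e-08) and Gapdh (2.61). Pgk1 and the muscle enzymes Pgam2 and Eno3 passed it only through the muscle wells. Among electron carriers and ATP export, 1 of 6 rose, the muscle ADP/ATP carrier Slc25a4 (3.12, edgeR adjusted p = 5.46e-05), while Slc25a5, its form in other tissues, had -0.31. Of the antioxidant list the 1 gene tested, Gpx1, fell (-3.24, edgeR adjusted p = 0.0462). Single genes tested of the citric acid cycle (Mdh2, 1.43) and of mitochondrial gene expression (Slirp, -1.42) were not called, and none of the regulators, Ppargc1a among them, was counted often enough to test.

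Markers of tendon, fibroblasts or progenitors and satellite cells were low in muscle wells. Perivascular and endothelial markers of these wells are not given here, and 1 of the wells was also in the Rgs5 class. Tendon markers summed to between 0 and 8.34 per 10000 in muscle wells against 83.2 to 107 outside, fibroblast or progenitor markers to between 9.56 and 31.7 against 124 to 210, and satellite cell markers to between 0 and 2.14 against 8.05 to 12.1. Pax7, Myf5 and Myod1 were at 0 in them.

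Promoters of nuclear members, from RefSeq for GRCm38.p6 (250 bases before to 50 after the start), were searched on both strands because members from several complexes rose together. A promoter was found for 76 of 90 nuclear members (82 promoters). The consensus of NRF1, a known activator of respiratory genes, searched with 1 free base, occurred in 24.4% of members' promoters and in 4.60% of all 32851 promoters. AANATGGC, bound by YY1, occurred in 25.6% against 6.05%, CCGGAAGT of GABPA in 6.10% against 3.89%, and TCAAGGTCA of ESRRA in 2.44% against 0.423%. CAGCTG, an E-box of the MyoD type, occurred in 6.10% against 16.3%. Among the 20 promoters of members that rose in muscle wells, 35.0% held the NRF1 consensus and 0% the E-box, beside 14.7% and 8.82% of the 34 promoters of members tested and not called. The NRF1 shares rest on 7 and 5 promoters, and the difference was not tested. YY1 occurred in 5 of the 20 against 10 of the 34 and GABPA in 1 against 3, both lower shares, and ESRRA in 1 against 0. The members that rose include Cox5a, Sdhb and Sdhc, which passed the filter on low counts only with the help of the muscle sums. A match describes letters and not a bound site. Atp5o, which rose, is shown with its NRF1 match in capitals, and Cox8b, a muscle form, with its E-boxes in capitals.
Atp5o, chr16:91931581-91931880, minus strand: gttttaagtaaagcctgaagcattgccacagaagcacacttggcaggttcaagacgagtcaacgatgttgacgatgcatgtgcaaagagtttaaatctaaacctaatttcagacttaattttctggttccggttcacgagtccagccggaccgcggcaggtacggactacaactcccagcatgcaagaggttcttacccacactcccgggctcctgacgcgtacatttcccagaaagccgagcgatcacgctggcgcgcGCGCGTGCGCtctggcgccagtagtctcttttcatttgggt
Cox8b, chr7:140900397-140900696, minus strand: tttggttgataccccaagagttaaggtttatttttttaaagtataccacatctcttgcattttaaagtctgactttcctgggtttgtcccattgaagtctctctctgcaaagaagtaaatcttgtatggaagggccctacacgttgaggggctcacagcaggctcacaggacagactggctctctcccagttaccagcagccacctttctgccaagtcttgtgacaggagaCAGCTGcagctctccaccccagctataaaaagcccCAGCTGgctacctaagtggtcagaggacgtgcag

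The 5 forms set aside by the rule took very different shares of the UMIs of their pairs in the classes of wells. Cox6a2 and Cox8b are the heart and skeletal muscle forms of Cox6a1 and Cox8a. In muscle wells Cox6a2 had 38 UMIs and Cox6a1 5, a share of 88.4% (74.9 to 96.1), against 1.78% (0.486 to 4.49) in wells of neither the muscle nor the Rgs5 class. Cox8b had 45 UMIs and Cox8a 5, a share of 90.0% (78.2 to 96.7), against 3.57% (1.45 to 7.22). For Cox7a1, the muscle form of Cox7a2, the share was 44.1% (27.2 to 62.1) against 1.60% (0.194 to 5.66), and it was 11.5% (4.35 to 23.4) in Rgs5 wells, with 6 UMIs. The 3 muscle forms passed the filter on low counts only through the muscle wells, so their levels are a description. Cox6a2 stood at 28.7, 36.4 and 30.0 per 10000 in muscle wells at the 3 times, Cox8b at 47.8, 57.9 and 21.7, and Cox7a1 at 19.1, 19.3 and 6.67, while the wells outside held 4, 8 and 8 UMIs of them in all. Cox7a2, unlike Cox6a1 and Cox8a, rose beside its muscle form, by 1.76 on the log2 scale (edgeR adjusted p = 0.0290).

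Ndufa4l2 and Cox4i2 had their highest shares in Rgs5 wells. Ndufa4l2, a relative of the complex IV subunit Ndufa4, had 37 UMIs against 27 of Ndufa4 there, a share of 57.8% (44.8 to 70.1), against 13.8% (8.42 to 21.0) in wells of neither class. Its level in Rgs5 wells was 4.10, 1.91 and 6.29 per 10000 at 2 days, 6 weeks and 13 weeks and 0.409, 0.666 and 0.465 in the others, with no overlap of the sums. It passed the filter on low counts only through the Rgs5 wells, so this is a description. Ndufa4 itself had a log2 fold change of -0.36 (edgeR adjusted p = 0.578). Cox4i2, the alternative form of Cox4i1, had 14 UMIs against 73, a share of 16.1% (9.09 to 25.5), against 1.42% (0.388 to 3.59). It had too few UMIs to be tested. Neither form had a UMI in muscle wells, beside 23 UMIs of each partner, and the interval of that share reached to 14.8%.

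**Figure D5:**
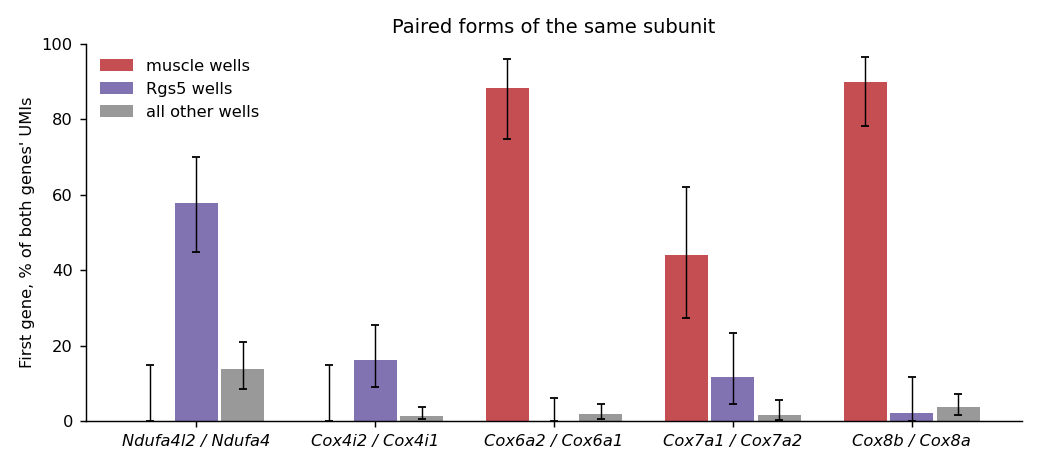
Share of a pair's UMIs that belonged to the first gene named, in percent, in muscle wells (red), Rgs5 wells (purple) and all other wells (gray), with exact 95% binomial intervals. Cox6a2 and Cox8b hold 88.4% and 90.0% in muscle wells, and Ndufa4l2 holds 57.8% in Rgs5 wells.

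In Rgs5 wells the ordinary members had nuclear levels slightly above the other wells, which include the muscle and tendon wells. The nuclear level was 228, 210 and 228 per 10000 at 2 days, 6 weeks and 13 weeks, against 217, 206 and 208 in the other wells, higher at 3 of 3 times by a mean log2 ratio of 0.08 ± 0.05 (SD, n = 3), but -0.037 with wells weighted equally. The ratios were 1.05 (0.958 to 1.15), 1.02 (0.940 to 1.11) and 1.10 (1.004 to 1.20), so the intervals at 2 days and 6 weeks included 1. Complex V was higher at all 3 times, by a mean log2 ratio of 0.21 ± 0.03, although each ratio, 1.128 (0.942 to 1.34), 1.16 (0.983 to 1.36) and 1.18 (0.983 to 1.41), had an interval that included 1, and the other complexes had mean log2 ratios between -0.29 and 0.10. Wells in the Rgs5 class alone, set against wells in none of the classes, had nuclear ratios of 1.10 (0.994 to 1.21), 1.15 (1.04 to 1.26) and 1.01 (0.906 to 1.12), and complex V ratios of 1.24 (1.02 to 1.4997), 1.34 (1.11 to 1.62) and 0.997 (0.797 to 1.24). The 13-week levels were thus close in that comparison. Mitochondrial mRNAs stood at 141, 104 and 124 against 117, 122 and 125, without a shared direction, and rRNAs at 674, 322 and 672 against 412, 276 and 572. Gm26924 was at 941, 486 and 882 against 582, 397 and 888.

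Of 62 members tested in Rgs5 wells, edgeR called 0 higher, against 11.9% of all 926 genes tested, and 0 lower, against 11.1%. At an unadjusted p under 0.05, a cut with no share of all genes beside it here, there were 3 by edgeR and 0 by DESeq2, which also called 0. These 3 were the stalk subunit Atp5j (log2 fold change 0.55, edgeR adjusted p = 0.113), the complex IV subunit Cox5b (0.82, 0.149) and Cox7b (-0.68, 0.148). Atp5j stood at 11.5, 6.27 and 7.23 per 10000 against 5.79, 5.66 and 5.81, without overlap of the sums, as for 7 of the 62 members, against 17.0% of all 926 genes. Between wells in the Rgs5 class alone and wells in none, edgeR called 1 of 47 members higher, against 10.7% of 524 genes, and 0 lower, against 9.73%. It was the rotor gene Atp5g3, named after its values were seen (log2 fold change 1.16 ± 0.40, edgeR adjusted p = 0.0390), and 7 members had an unadjusted p under 0.05. The median of 39 nuclear members was then 0.40, beside -0.031 for all genes, and 29 lay above 0, whereas it was 0.11 beside 0.0069 with all other wells. Against all other wells, the values at the ends of the range were 0.82 for Ndufb7 and for Cox5b, 0.76 for Cox7a2l, -0.85 for Ndufs6, -0.68 for Cox7b and -0.50 for Ndufb11. On read counts Cox7a2l had -0.19. Of the carrier list, the ADP/ATP carrier Slc25a5 rose (0.94, edgeR adjusted p = 0.0289) while its muscle form Slc25a4 had -0.98 (edgeR adjusted p = 0.0239) against other wells that include the muscle wells. Against wells in no class neither was called, with 0.79 (edgeR adjusted p = 0.124) and -0.66 (0.312). Perivascular markers summed to between 102 and 119 per 10000 in Rgs5 wells against 8.51 to 16.6, and endothelial markers to between 21.3 and 42.7 against 1.63 to 6.28. The part of endothelial RNA was not tested.

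Wells with tendon transcripts held fewer nuclear respiratory chain transcripts at 6 and 13 weeks, whether set against all other wells or against wells in none of the classes. Their nuclear level was 205, 164 and 148 per 10000 at the 3 times, against 229, 231 and 251 in the other wells, lower at 3 of 3 times with a mean log2 ratio of -0.47 ± 0.30 (SD, n = 3). The other wells include the muscle wells. Against wells in none of the classes, the wells in the tendon class alone stood at 207, 163 and 141 against 215, 184 and 214, with ratios of 0.960 (0.894 to 1.03), 0.883 (0.808 to 0.965) and 0.662 (0.595 to 0.737). Mitochondrial mRNAs stood at 116, 131 and 116 in tendon wells against 124, 111 and 129, a mean log2 ratio of -0.0048 ± 0.22. The tendon class alone over wells of no class gave 0.981 (0.891 to 1.08), 1.07 (0.967 to 1.19) and 0.843 (0.744 to 0.954) for them.

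Within the tendon wells, the nuclear level at 13 weeks was 0.723 (0.658 to 0.794) of that at 2 days, and at 6 weeks 0.800 (0.736 to 0.869). Complex V was lowest relative to 2 days, at 53.5, 38.5 and 29.9 per 10000 and 0.559 (0.455 to 0.684) at 13 weeks. Complex III stood at 18.3, 16.0 and 11.96, and complex IV at 52.9, 41.5 and 35.2, with 13-week ratios of 0.654 (0.464 to 0.909) and 0.665 (0.547 to 0.805). Complex I at 71.1, 60.4 and 62.1 was closer to its 2-day level, at 0.874 (0.751 to 1.02). Mitochondrial mRNAs were at 1.00 (0.894 to 1.12), with mitochondrial complex IV, almost all of it mt-Co1, at 1.98 (1.34 to 2.94). In the wells of no class the nuclear ratio at 13 weeks was 0.993 (0.916 to 1.08). Whether the classes differ in their time course was not tested. Gm26924 stood at 641, 407 and 1102 in the tendon wells, and without it and the mitochondrial rRNAs in the total the 13-week ratio was 0.776.

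Single members varied around these sums. Atp5j stood at 5.82, 4.26 and 2.30 per 10000, against 7.15, 6.67 and 8.47 in the other wells. The catalytic subunit Atp5b stood at 3.69, 3.91 and 1.61 against 5.16, 5.08 and 4.71. Uqcrb, a complex III subunit named after its values were seen, stood at 4.11, 2.31 and 1.61 against 4.57, 5.68 and 5.38. The sums of the groups did not overlap for these 3, as for 24 of the 66 members tested in this direction, against 22.6% of all 1104 genes, and for 24 of the 59 that passed the filter in the other wells, against 34.5% of 725 genes. Ndufa13 went the other way without overlap, at 5.11, 4.97 and 5.98 against 4.37, 3.29 and 3.90. It was the only member to do so, against 15.6% of all 1104 genes and 9.79% of the 725 that passed the filter in the other wells.

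None of these differences was called gene by gene. Of 66 members tested in tendon wells, edgeR called 0 higher, against 11.1% of all 1104 genes tested, and 0 lower, against 7.16%. At an unadjusted p under 0.05, a cut with no share of all genes beside it here, there were 14 by edgeR and 0 by DESeq2, which also called 0. The median log2 fold change of 57 nuclear members was -0.34, beside -0.0044 for all genes, and 12 of 57 lay above 0. Between wells in the tendon class alone and wells in none, the median of 47 nuclear members was -0.083, beside 0.026 for all genes, 19 lay above 0, and 3 of 56 members had an unadjusted edgeR p under 0.05. There edgeR called 1 member, Ndufa13, as higher (log2 fold change 0.91, adjusted p = 0.0457), against 14.4% of 834 genes, and 0 lower, against 11.9%. Against all other wells, the lowest were Ndufa12 (-0.93), Uqcrq (-0.92, edgeR adjusted p = 0.0654) and Uqcrh (-0.80), the last a hinge protein of complex III. Cox7c (-0.73, edgeR adjusted p = 0.0707) and Ndufb8 (-0.79, 0.0735), the latter named after its values were seen, also missed the threshold. The highest against all other wells were Ndufa13 (0.62, edgeR adjusted p = 0.108), Ndufb4 (0.57) and Ndufa11 (0.46), the last of which was at -0.034 without the 2-day wells. With total UMIs as the only scaling, which moved the median of all genes to -0.24, 13 members fell and 0 rose, and over all genes 113 rose and 192 fell, beside 126 and 79 with TMM scaling (the genes that define the class included).

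Of the related pathways in tendon wells, Slc25a5 fell (-1.03, edgeR adjusted p = 0.0399) and was the only one of 6 carrier genes tested that was called, but had -0.71 (edgeR adjusted p = 0.161) against wells of no class. The 5 glycolysis genes tested had a median log2 fold change of -0.51 and 0 calls, with Gapdh at -0.95 (edgeR adjusted p = 0.0519). Tendon markers summed to between 197 and 272 per 10000 in these wells against 9.16 to 10.6 in the others, and perivascular markers to between 5.86 and 14.7 against 33.3 to 61.1. Satellite cell markers summed to between 7.52 and 22.5 against 5.11 to 8.34, but this list was not of one direction. Of its 6 genes 2 were tested, 1 called higher and 1 lower, and 3 had no UMI in tendon wells, Cdh15 and Myf5 among them. Fewer respiratory chain transcripts per cell and a larger amount of other RNA per cell cannot be told apart.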

How the data were processed

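The authors sorted cells into wells, made 3′ cDNA with a modified Drop-seq chemistry and deposited, for each plate, tables of UMI counts and of read counts that were not normalized. Per the labels they used bcl2fastq 2.18.0.12, Picard 2.9.3 and STAR 2.5.4a with GRCm38. Here the 168 wells assigned to no time point and wells under 200 genes were left out, and genes absent from a plate's table were set to 0 there. UMI counts were summed per time point and class and compared with edgeR 4.0.16 (quasi-likelihood test, filterByExpr, TMM, time point as block, Benjamini-Hochberg threshold 0.05) in R 4.3.3. DESeq2 1.42.0 was an alternative. Levels between times were compared from 50 UMIs on, past 1.5-fold. Sums over members have no p-value, and counts of members at an unadjusted p have no share of all genes to be read against. edgeR was also run on simulated counts, and the outcome is not given here. The members, gene lists, naming rule and tests were chosen with earlier results of these data known. Named were all mitochondrial genes, the 12 nuclear members with the most UMIs, in each class the called members (up to 10) or else the 3 highest and 3 lowest with at least 30 UMIs, the 3 highest and 3 lowest in each time comparison, and the forms set aside. Sequences came from GENCODE M21 and RefSeq. Alternatives changed the gene minimum, counts, classes, scaling, total, filter and wells included. The comparison over time within tendon wells, the mitochondrial mRNAs without chromosome 1 copies, the 13-week ratio without each muscle well in turn and the counts of genes that passed the filter in the other wells were added after seeing the data.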

Additional observations from a re-analysis of the deposited data

Results flagged for a closer look

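The mitochondrial mRNA level in Rgs5 wells relative to the other wells was 1.21 at 2 days and 0.854 at 6 weeks, on opposite sides of 1. In tendon wells it was 1.18 at 6 weeks and 0.894 at 13 weeks. The mitochondrial rRNA level in tendon wells relative to the others was 1.08 at 6 weeks, 0.882 at 2 days and 0.902 at 13 weeks. These ratios had intervals that did not include 1, and the differences between time points were not tested.

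Wells with fewer than 200 genes, which the comparisons above did not use, held nuclear members at 429 UMIs per 10000 at 13 weeks (59 wells), above the level of the kept wells. Of these wells, 12 had muscle transcripts and a level of 901 (788 to 1027), and the other 47 had a level of 262 (226 to 303). At 2 days the wells below the minimum stood at 135 (94.1 to 188), and at 6 weeks at 204 (164 to 250).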

How the results depend on the processing

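Depth limits single genes: a well held 246 to 3928 UMIs, and only 7 nuclear members reached 200 UMIs. The muscle class was 1 well at 2 days. Relative to 2 days, nuclear members at 13 weeks were 1.05 with 100 genes per well and 0.883 without muscle wells. At 6 weeks they were 0.889 on read counts, 1.02 with wells weighted equally, 0.856 without muscle wells and 0.857 in wells of no class. Mitochondrial mRNAs at 13 weeks were 1.15 in wells of no class. The rRNAs at 13 weeks were 1.28 with 100 genes, 1.42 on read counts, 1.40 without rRNAs in the total, 1.24 with wells weighted equally and 1.48 in wells of no class; at 6 weeks they were 0.769 on read counts, 0.600 without the deepest 5% of wells, 0.669 without wells over 15% mitochondrial UMIs, 0.612 without rRNAs in the total and 0.590 with wells weighted equally. Within tendon wells the 13-week nuclear ratio was 0.817 with classes set on wells thinned to 300 UMIs, and the 6-week ratio was 0.892 so, 0.717 on read counts and 0.874 without the deepest wells. Calls in Rgs5 wells numbered 1 higher without wells of another class and 1 lower (Cox7b) without the filter on low counts, against 10.7% and 1.35% of all genes. In tendon wells they numbered 1 lower with 100 genes, 2 lower without the deepest wells, 1 higher without wells of another class, 1 lower with a stricter class threshold and 13 lower with total UMIs. Of all genes, 8.18%, 7.89%, 14.4%, 8.71% and 17.4% were called in the same direction under these settings. In muscle wells they numbered 13 with 300 genes (7 higher, 6 lower), 0 on read counts, 10 with thinned wells (9 higher, 1 lower), 25 without the deepest wells (15 higher, 10 lower), 27 with a stricter class threshold (22 higher, 5 lower), 46 without wells of another class (41 higher, 5 lower), 3 without the filter (all lower: mt-Co1 and both rRNAs), and 0 to 15 with a time point left out. The 13-week mitochondrial mRNA ratio of muscle wells ranged from 0.647 without the well also in the Rgs5 class to 1.53 with another muscle well left out. The mean log2 nuclear ratio in Rgs5 wells was 0.15 with 300 genes, 0.14 on read counts, 0.00638 without the deepest wells and -0.0373 with wells weighted equally. Ndufa6 at 13 weeks was 0.953 and Cox7a2l in Rgs5 wells -0.19 on read counts, and Ndufa11 in tendon wells ranged from -0.0340 without the 2-day wells to 0.757 without the 6-week wells. The cause of these changes was not tested. Of the recomputed values of the main comparisons, 226 kept their side or size, 7 passed the threshold anew, 34 moved and 2 turned direction. The time point was the replicate block. Without the block 37 members rose and 1 fell in muscle wells, where 90 of all 793 genes tested rose and 165 fell. In the other classes 0 members were called (10 under an unadjusted edgeR p of 0.05 in tendon wells and 2 in Rgs5 wells). Of all genes tested there without the block, 109 of 1104 rose and 57 fell in tendon wells, and 88 of 926 rose and 62 fell in Rgs5 wells.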
